A study of Mus musculus with 4 samples.

Results

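The 10 genes described here encode the coat and accessory proteins of caveolae, together with the flotillins. They are the caveolins Cav1, Cav2 and Cav3, the cavins Cavin1, Cavin2 and Cavin3, the membrane-shaping proteins Ehd2 and Pacsin2, and the flotillins Flot1 and Flot2. They were chosen by name as a gene family, with results of the same comparison of CD38 KO with WT in view, and each was found once among the 55467 genes of the files. Their differences between the genotypes are therefore a description, and a count of members is not independent evidence about the family.

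RNA was sequenced from primary mouse astrocytes of the cerebral cortex, with 2 libraries from CD38 KO and 2 libraries from WT. The series concerns what astrocyte CD38 does for synapse formation and adult social memory, and the files allow transcript levels of astrocytes with and without Cd38 to be set against each other. Pups of both genotypes were 1 to 3 days old. Their cells grew for 14 days in medium with 10% fetal bovine serum, were shaken for 12 h to discard loose cells, and were harvested 5 days after replating. Neither the deleted exons nor the strains are named in the labels, nor whether the 2 libraries of a genotype are separate cultures. The p-values therefore rest on the spread between libraries, which may be technical, and the effect of losing Cd38 cannot be told apart from any difference in strain.

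Caveolae are small flask-shaped pits of the plasma membrane that are rich in cholesterol. Caveolins are inserted in the inner leaflet, cavins coat the pit from the cytosol, and EHD2 and PACSIN2 sit at or shape its neck. Pits flatten when the membrane is stretched, and they hold signalling proteins and take part in lipid uptake. Flotillins belong to another family, the SPFH proteins, and mark membrane microdomains that are distinct from caveolae. In brain, caveolin-1 is best known from endothelium, and cultured astrocytes also carry it, while caveolin-3 is the caveolin of muscle.

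Levels are given in FPKM, fragments normalised for transcript length and library depth, as deposited by the authors. Depth, read from the step size of low FPKM values, was about 29000000 fragments in each CD38 KO library and about 26900000 and 28100000 fragments in WT. Cd38 itself was at 0.0222 and 0.0222 FPKM in CD38 KO and at 3.13 and 3.45 FPKM in WT, so that all 4 libraries carried the Cd38 level of their label. All 10 astrocyte markers passed the filter of 1 FPKM, with Gfap the highest at 1198 and 1225 FPKM in CD38 KO and 1390 and 1330 FPKM in WT. S100b was the lowest, at 3.51 and 4.94 FPKM in CD38 KO and 10.7 and 11.4 FPKM in WT, and was called lower (log2 difference -1.22, limma adjusted p = 0.00484), a call lost without WT 2 (0.0571). Among 14 microglia and macrophage markers, 12 were tested and all 12 were called higher in CD38 KO, against 8.0% of all genes tested. Their summed level was 611 to 685 FPKM in CD38 KO and 89.0 to 102 FPKM in WT.

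The promoters of Cav1, Cav2 and Ehd2 are shown because these genes had the 3 lowest differences of the family, and because Cav1 and Cav2 are neighbours. The sequences come from RefSeq on GRCm38.p6 and run 5′ to 3′ on the strand of the gene, from 250 bases before the transcription start to 50 bases after. Of the 10 genes, 8 had a promoter in the table, and Cavin3 and Flot1 had no entry. Capitals mark the motifs searched on both strands, which were the GC box GGGCGG, the TATA box TATAAA, the CCAAT box CCAAT, the AP-1 motif TGANTCA, the TEAD motif GGAATG and the CArG box of serum response factor. Overlapping matches merge into 1 run of capitals.
Cav1 (chr6:17306085-17306384, plus strand): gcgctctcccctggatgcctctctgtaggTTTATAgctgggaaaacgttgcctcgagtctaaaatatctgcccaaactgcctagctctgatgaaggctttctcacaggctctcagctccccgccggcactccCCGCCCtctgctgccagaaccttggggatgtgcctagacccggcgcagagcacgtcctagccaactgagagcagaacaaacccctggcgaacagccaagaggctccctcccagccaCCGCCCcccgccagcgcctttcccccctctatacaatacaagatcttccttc
Cav2 (chr6:17280935-17281234, plus strand): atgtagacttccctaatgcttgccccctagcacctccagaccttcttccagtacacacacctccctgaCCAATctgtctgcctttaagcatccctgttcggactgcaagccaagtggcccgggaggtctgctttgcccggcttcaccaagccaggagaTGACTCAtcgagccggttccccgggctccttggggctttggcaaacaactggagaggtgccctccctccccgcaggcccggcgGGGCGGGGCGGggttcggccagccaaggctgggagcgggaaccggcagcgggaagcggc
Ehd2 (chr7:15967486-15967785, minus strand): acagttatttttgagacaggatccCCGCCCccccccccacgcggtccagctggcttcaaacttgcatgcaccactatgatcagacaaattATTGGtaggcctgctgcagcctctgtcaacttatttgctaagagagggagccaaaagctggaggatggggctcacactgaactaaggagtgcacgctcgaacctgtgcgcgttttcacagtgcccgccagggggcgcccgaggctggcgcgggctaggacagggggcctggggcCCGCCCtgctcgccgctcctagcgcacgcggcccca
All 3 windows held 2 GC boxes. At least 1 such box was found in 35.9% of the 32544 distinct promoter windows of the same length. Of the 8 genes, 6 had one, among them Cavin1, Flot2 and Pacsin2, which were not called. The 3 windows were also rich in C and G, at 59.3% for Cav1, 64.3% for Cav2 and 62.0% for Ehd2. The median over all windows was 53.0%, and members not shown ran from 43.3% for Cavin2 to 67.0% for a Cavin1 window. The Cav2 window held an AP-1 motif 92 bases before the start, and 7.79% of all windows hold one. A window of Pacsin2 held an AP-1 motif too. The Cav1 window had a TATA box on the opposite strand 221 bases before the start, and 13.6% of windows hold this motif. A CCAAT box lay in the Cav2 and Ehd2 windows, and in 37.4% of all windows. TEAD motifs, in 14.6% of all windows, were found in the family for Cav3 and Cavin1, and CArG boxes, in 1.64%, for none of the 8 genes. Cav1 has a further RefSeq start 1305 bases downstream, whose window held none of these motifs. A match describes the letters of the window and not a site in use.

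The family spanned a wide range of levels, and its order was much the same in both genotypes. Cav1, the main structural caveolin outside muscle, was the most abundant member, and its mean over the 4 libraries was higher than that of 98.2% of the 13064 tested genes. Tested genes are those with a mean of at least 1 FPKM. Cavin1, which is needed for caveolae to form, and Flot1 each stood above 90.9% of tested genes. The same share was 88.1% for Pacsin2, 84.8% for Flot2, 81.8% for Cav2, 60.4% for Cavin3 and 48.7% for Ehd2. Cavin2 was near the bottom, above 4.87% of tested genes, and Cav3 was under the filter and not tested. In CD38 KO, Flot1 stood above Cavin1 in both libraries, at 73.2 and 73.4 FPKM against 70.6 and 69.5 FPKM. In WT, Cavin1 stood above Flot1 in both libraries, at 82.2 and 77.5 FPKM against 80.8 and 72.3 FPKM, though the ranges of these genes overlapped. Cav2 and Flot2 were neighbours in the order as well, at 34.0 and 33.1 FPKM for Cav2 in CD38 KO, below 46.8 and 43.8 FPKM for Flot2, and their WT ranges were 50.8 and 46.0 FPKM for Cav2 and 49.9 and 51.6 FPKM for Flot2.

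**Figure D1:**
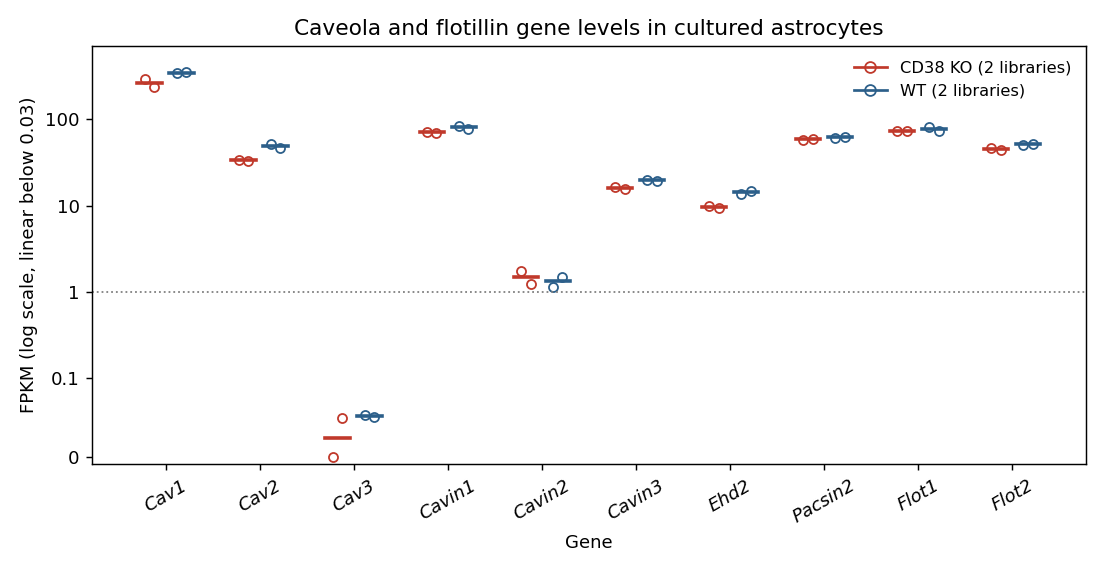
FPKM of the 10 genes on a log axis that is linear below 0.03, with CD38 KO in red to the left of WT in blue, circles for libraries, bars for means and the filter of 1 FPKM as a dotted line. Cav1 lies highest at 233 to 346 FPKM, Cavin2 lies near 1 FPKM and Cav3 lies at or near 0.

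Of the 9 tested members, 3 were called lower in CD38 KO and none higher, where 6.35% of all tested genes were called lower, 8.0% higher and 14.4% were called in either direction. A gene is called when its adjusted p is under 0.05 in limma on log2(FPKM + 1), with Benjamini-Hochberg adjustment over all tested genes. The called members were Cav2, Cavin3 and Ehd2. Both CD38 KO libraries lay below both WT libraries in 7 of the 9, against 29.5% of all tested genes, and the other 2, Cavin2 and Flot1, overlapped. The median difference of the 9 tested members was -0.19 on the log2 scale, and that of all tested genes was 0.0011. Since the family was chosen with this comparison in view, nothing is read from these shares.

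Among the caveolins, Cav2 was called lower and Cav1 lay just outside the threshold. Cav1 (ENSMUSG00000007655) lies on GRCm38 chromosome 6 at 17306335 to 17341452. Its level was 287 and 233 FPKM in CD38 KO and 337 and 346 FPKM in WT. Both CD38 KO libraries were below both WT libraries. The spread between the CD38 KO libraries was wider than that between the WT libraries, and wider than the gap from CD38 KO 1 to WT 1. The means were 260.4 ± 38.0 FPKM in CD38 KO and 341 ± 6.10 FPKM in WT (SD, n = 2 each), so the CD38 KO mean was 76.3% of the WT mean. On the log2(FPKM + 1) scale the difference was -0.40 (SE 0.10, 95% interval -0.64 to -0.16, limma adjusted p = 0.0505). Whether Cav1 was called depended on the libraries and on settings of the fit, with a call in 8 of the 14 alternative fits. Of the 4 fits without 1 library, only that without CD38 KO 1 called it. The lone CD38 KO library is there assumed to vary as little as WT, although the CD38 KO spread was the wider. The log2 difference was -0.55 without CD38 KO 1, -0.25 without CD38 KO 2, -0.42 without WT 1 and -0.38 without WT 2.

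Cav2, which needs caveolin-1 to reach the plasma membrane, was lower by a larger share of the mean. The ratio of Cav1 to Cav2 overlapped between genotypes, so the decreases of these 2 genes are not told apart. Cav2 (ENSMUSG00000000058, chromosome 6, 17281185 to 17289115) was at 34.0 and 33.1 FPKM in CD38 KO and at 50.8 and 46.0 FPKM in WT. The genotypes did not overlap, and the lowest WT library stood well above the highest CD38 KO library. The means were 33.5 ± 0.655 FPKM in CD38 KO and 48.4 ± 3.33 FPKM in WT (SD, n = 2 each), a decrease of 30.8%. The log2 difference was -0.52 (SE 0.06, 95% interval -0.67 to -0.36, limma adjusted p = 0.00542). The call ended without CD38 KO 1 (limma adjusted p = 0.0701) and without CD38 KO 2 (0.0754), with log2 differences of -0.54 and -0.50 in those fits. The lone CD38 KO library is there assumed to vary like WT.

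Cav3, the muscle caveolin, was at the limit of detection. Its FPKM (ENSMUSG00000062694, chromosome 6, 112459505 to 112472872) was listed at 0 in CD38 KO 1 and at 0.0348 in CD38 KO 2, and was 0.0376 and 0.0358 in WT. These values correspond to 0 and 1 fragments in CD38 KO and to 1 and 1 fragments in WT, on its single annotated transcript of 1157 bases. A count of 0 allows up to 3 fragments, or 0.105 FPKM, in CD38 KO 1, for counting error only, and no difference could be detected at this depth. Of 10 markers of skeletal and cardiac muscle none reached a mean of 1 FPKM, their summed level was under 1 FPKM in each of the 4 libraries, and Actc1 was listed at 0 in all of them.

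Cav1 and Cav2 lie on the same strand, 17.2 kb apart, and share 1 locus in the files. The annotation also places the antisense gene Gm15581 across both, and it was listed at 0 in CD38 KO and at 0.00681 and 0 FPKM in WT. The 3 nearest tested genes on each side were Mdfic, Tes and Gm4876 before Cav2 and Met, Capza2 and St7 after Cav1. St7 was the called one of these 6, at 9.95 and 8.87 FPKM in CD38 KO and 12.4 and 11.8 FPKM in WT (log2 difference -0.34, limma adjusted p = 0.0442), and its call ended without any 1 of the 4 libraries (adjusted p of 0.108 to 0.189). Met, a receptor kinase, was at 6.86 and 6.77 FPKM in CD38 KO and at 5.63 and 5.48 FPKM in WT, which is the opposite sign to Cav1 and Cav2 (log2 difference 0.25, limma adjusted p = 0.0773). Capza2, 295 kb after Cav1, was at 90.0 and 98.6 FPKM in CD38 KO and 98.1 and 92.0 FPKM in WT, with overlapping ranges.

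Among the cavins, Cavin3 was called lower, and Cavin1 and Cavin2 were not called. Cavin1 (ENSMUSG00000004044, chromosome 11, 100956733 to 100970887) was at 70.6 and 69.5 FPKM in CD38 KO and at 82.2 and 77.5 FPKM in WT, with no overlap. Its mean was 70.1 ± 0.784 FPKM in CD38 KO and 79.9 ± 3.33 FPKM in WT (SD, n = 2 each), or 87.8% of WT. The log2 difference was -0.19 (SE 0.05, 95% interval -0.30 to -0.07, limma adjusted p = 0.0595), and Cavin1 was not called in any of the 14 alternative fits (adjusted p of 0.0527 to 0.210).

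Cavin3, which binds caveolin-1 and protein kinase C delta, was at 16.4 and 15.6 FPKM in CD38 KO and at 19.95 and 19.0 FPKM in WT. This gene (ENSMUSG00000037060, chromosome 7, 105480083 to 105482300) had no overlap between genotypes, and its means were 16.0 ± 0.547 FPKM in CD38 KO and 19.5 ± 0.657 FPKM in WT (SD, n = 2 each), 18.1% lower in CD38 KO. The log2 difference was -0.27 (SE 0.06, 95% interval -0.42 to -0.12, limma adjusted p = 0.0372), the called member nearest to the threshold. The values rest on about 706 and 676 fragments in CD38 KO and 799 and 801 fragments in WT. Without CD38 KO 1, CD38 KO 2, WT 1 or WT 2 the call was lost each time, with limma adjusted p of 0.135, 0.175, 0.164 and 0.126.

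Cavin2, a phosphatidylserine-binding cavin that helps shape the pit, was low and overlapped between genotypes. It (ENSMUSG00000045954, chromosome 1, 51289126 to 51302960) was at 1.73 and 1.23 FPKM in CD38 KO and at 1.15 and 1.51 FPKM in WT, from about 145 and 103 fragments in CD38 KO and 89 and 122 in WT. The log2 difference was 0.09 with a 95% interval of -0.32 to 0.49 (limma adjusted p = 0.765).

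At the neck of the pit, Ehd2 was called lower and Pacsin2 was not called. Ehd2 (ENSMUSG00000074364, chromosome 7, 15946958 to 15967567), an ATPase that holds caveolae at the surface, was at 9.75 and 9.40 FPKM in CD38 KO and at 13.6 and 14.7 FPKM in WT. The genotypes did not overlap, and the gap between them was wider than the spread within either. The means were 9.58 ± 0.251 FPKM in CD38 KO and 14.1 ± 0.793 FPKM in WT (SD, n = 2 each), 32.3% lower in CD38 KO, and the log2 difference was -0.52 (SE 0.07, 95% interval -0.69 to -0.35, limma adjusted p = 0.00776). The call held without WT 1 (limma adjusted p = 0.0418) and was lost without CD38 KO 1 (0.0785), CD38 KO 2 (0.0832) and WT 2 (0.0704).

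Pacsin2 (ENSMUSG00000016664, chromosome 15, 83375607 to 83464606), an F-BAR protein that bends membrane, was at 57.0 and 59.2 FPKM in CD38 KO and at 60.8 and 62.4 FPKM in WT. The ranges did not overlap, and the interval of the difference includes 0. The log2 difference was -0.08 (95% interval -0.20 to 0.03, limma adjusted p = 0.287), and the CD38 KO mean was 94.3% of the WT mean. The pseudogene Gm5417 lies inside Pacsin2 and was at 0.513 and 0.128 FPKM in CD38 KO and 0.137 and 0.396 FPKM in WT.

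The flotillins were not called. Flot1 (ENSMUSG00000059714, chromosome 17, 35823230 to 35832791) was at 73.2 and 73.4 FPKM in CD38 KO and at 80.8 and 72.3 FPKM in WT, where WT 2 lay below both CD38 KO libraries. Its log2 difference was -0.06 (95% interval -0.21 to 0.10, limma adjusted p = 0.577). Flot2 (ENSMUSG00000061981, chromosome 11, 78037931 to 78060434) was at 46.8 and 43.8 FPKM in CD38 KO and at 49.9 and 51.6 FPKM in WT, with no overlap, and its log2 difference was -0.16 (95% interval -0.29 to -0.03, limma adjusted p = 0.105). Flot1 lies between Ier3 and Tubb5 on chromosome 17. Tubb5, a beta-tubulin gene 1.13 kb away, was the called one of the 6 nearest tested genes, at 113 and 113 FPKM in CD38 KO and 164 and 168 FPKM in WT (log2 difference -0.55, limma adjusted p = 0.000899), and it was called without each library in turn. Ier3, 0.307 kb on the other side, was at 279 and 266 FPKM in CD38 KO and at 305 and 287 FPKM in WT and was not called (limma adjusted p = 0.182).

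**Figure D2:**
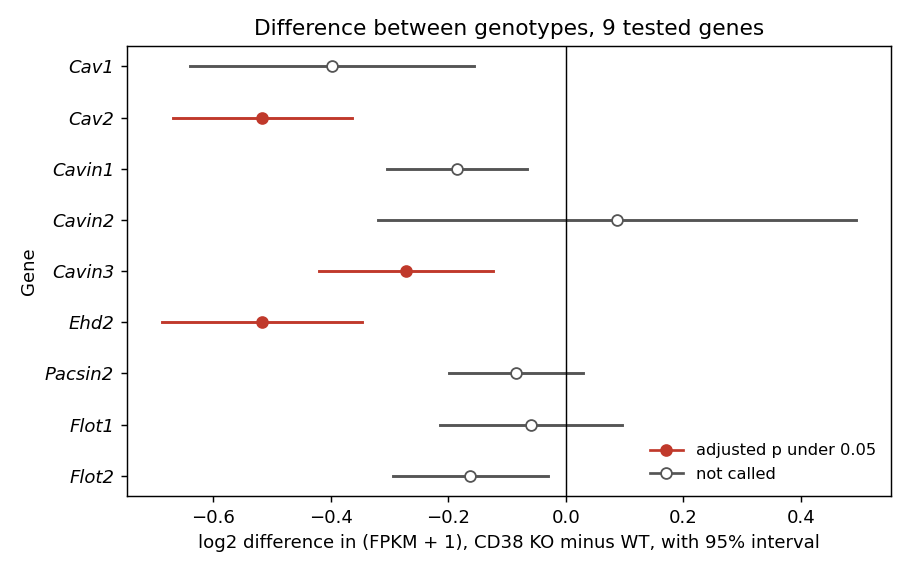
Log2 difference in (FPKM + 1), CD38 KO minus WT, for the 9 tested genes, with 95% intervals from limma (n = 2 libraries each) and filled red points for called genes. Ehd2 and Cav2 lie at -0.52, Cavin3 at -0.27 and Cav1, not called, at -0.40, while Cavin2, Pacsin2 and Flot1 have intervals that include 0.

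How far each call depended on the fit differed between the members. Over the 14 alternative fits Cav2 was called in 11, Ehd2 in 10, Cav1 in 8 and Cavin3 in 7, each time lower in CD38 KO. The other 5 tested members were called in none. Without the filter on low values, which raised the number of tested genes to 26654, limma called 0 of the members (6 had an unadjusted p under 0.05). The share of all tested genes with an unadjusted p under 0.05 was not computed for any fit. Nothing is read from such counts of members.

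**Figure D3:**
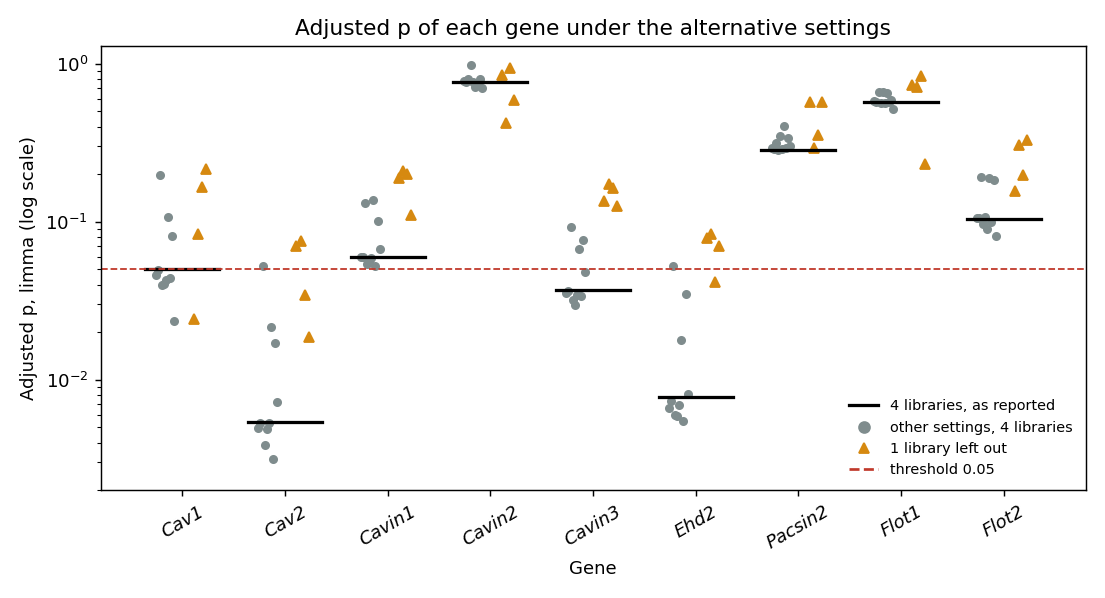
Adjusted p from limma on a log axis for the 9 tested genes, with a bar for the 4 libraries as reported, circles for other settings of all 4 libraries, triangles for fits without 1 library and the threshold of 0.05 dashed. The bars of Cav2, Cavin3 and Ehd2 lie below the threshold and Cav1, at 0.0505, lies on it, and each of these 4 genes has points on both sides.

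Because FPKM is scaled to transcript length, levels of different members can be set against each other within a library. Cav1 made up 89.4% and 87.6% of the summed level of the 3 caveolins in CD38 KO and 86.9% and 88.2% in WT. Cavin1 made up 79.6% and 80.5% of the 3 cavins in CD38 KO and 79.6% and 79.1% in WT. The dominant member of each class was thus the same in all 4 libraries, at a similar share.

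The ratio of Cav2 to Cavin1 was 0.481 and 0.475 in CD38 KO and 0.617 and 0.594 in WT. The ratio of Pacsin2 to Ehd2 was 5.84 and 6.30 in CD38 KO and 4.48 and 4.24 in WT. Neither ratio overlapped between genotypes, and the gaps were larger than the spread within a genotype. The ratio of Cav1 to Cav2 overlapped, at 8.45 and 7.06 in CD38 KO and 6.64 and 7.51 in WT. The ratio of Flot1 to Flot2 overlapped too, at 1.56 and 1.68 in CD38 KO and 1.62 and 1.40 in WT. Of 8 such ratios computed, 6 did not overlap, some of them narrowly. The ratio of Cav1 to Ehd2 was 24.84 in CD38 KO 2 and 24.82 in WT 1. The 8 ratios share genes, and no share over other gene pairs was computed, so nothing is read from this count. With 2 libraries against 2 the 2-sided exact permutation test cannot go below p = 0.333, which is 0.444 after adjustment over the 8.

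Other genes listed as accessory to caveolae held 1 call in each direction. Of 10 listed accessory genes (Cavin4, further EHD and PACSIN genes, the dynamins and Ror1), 9 were tested, 1 was called higher, 1 lower and 7 were not called, with a median log2 difference of -0.02, where 8.0% of all tested genes were called higher and 6.35% lower. Ehd3, a paralogue of Ehd2 that works on endosomes, was at 33.7 and 34.8 FPKM in CD38 KO and 46.0 and 44.1 FPKM in WT (log2 difference -0.39, limma adjusted p = 0.00706). Ehd4 had the opposite sign, at 9.06 and 9.35 FPKM in CD38 KO and 6.31 and 6.10 FPKM in WT (log2 difference 0.50, limma adjusted p = 0.00888). Ehd4 lost its call without any 1 of the 4 libraries (adjusted p up to 0.0883), and Ehd3 kept it without WT 2 (0.0432) and lost it in the other 3 fits (up to 0.077). Pacsin3 and Ehd1 were next by p and were not called (limma adjusted p = 0.0628 and 0.0839).

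Among signalling proteins reported in caveolae, 3 of 14 tested genes were called higher, 2 lower and 9 not called (median log2 difference 0.05). Over all tested genes, 8.0% were called higher and 6.35% lower. Cd36, a fatty acid transporter that macrophages also express, was at 13.8 and 14.7 FPKM in CD38 KO and 2.38 and 2.55 FPKM in WT (log2 difference 2.14, limma adjusted p = 0.000102). The microglia and macrophage markers beside it had a median log2 difference of 2.31, and their part in the Cd36 result was not tested. Tgfbr1, a TGF-beta receptor, was called higher at 9.95 and 9.23 FPKM in CD38 KO against 4.51 and 5.02 FPKM in WT, a call that ended without CD38 KO 1 (limma adjusted p = 0.0533). Pdgfra and Bmpr2 were the lower genes and Egfr the other higher one. Pdgfra kept its call without WT 1 alone, while Bmpr2 and Egfr lost theirs without any 1 of the 4 libraries (adjusted p up to 0.144 and 0.154). The kinases Src and Fyn, which phosphorylate caveolin-1, were not called (limma adjusted p = 0.134 and 0.112).

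Flotillin relatives and the clathrin coat, the other main coat of endocytic pits, made up lists too short to be read against the 14.4% of all tested genes that were called. Among 7 tested SPFH genes limma called 0 (2 had an unadjusted p under 0.05), and the median log2 difference was -0.01. Stoml1 came nearest, at 28.7 and 29.2 FPKM in CD38 KO and 32.9 and 33.4 FPKM in WT (limma adjusted p = 0.0551). Among 9 clathrin and AP2 genes limma called 0 as well (3 had an unadjusted p under 0.05), with a median of -0.08. Of these 9, 7 had a negative difference. The share of all tested genes with an unadjusted p under 0.05 was not computed, so nothing is read from the counts of 2 and 3. The light chain Cltb, the gene of smallest p, was at 106 and 108 FPKM in CD38 KO and 99.9 and 88.9 FPKM in WT (limma adjusted p = 0.114), and the AP2 subunits Ap2s1, Ap2b1 and Ap2a1 were next (0.124, 0.164 and 0.204). Genes of the YAP/TEAD and MRTF/SRF programmes, which respond to stretch and to the actin skeleton, had 2 of 14 tested genes called higher, 3 lower and 9 not called. Cnn1, a smooth-muscle type calponin, was at 9.36 and 10.1 FPKM in CD38 KO and 19.2 and 19.3 FPKM in WT (log2 difference -0.92, limma adjusted p = 0.000731), and was called without each library in turn. Ccn2, a matricellular YAP target, was at 125 and 115 FPKM in CD38 KO and 92.2 and 88.7 FPKM in WT (log2 difference 0.40, limma adjusted p = 0.00795), and lost its call without CD38 KO 1 (0.0665) and without WT 2 (0.0699). Wwtr1, Tagln and Tead1 were the remaining called genes, and Wwtr1 and Tead1 lost their calls without any 1 of the 4 libraries, Tagln without 3 of them.

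In bulk RNA, fewer cells of a type and less RNA per cell cannot be told apart. Of 10 endothelial markers, 9 had a mean under 1 FPKM. Their summed level was 3.95 to 4.52 FPKM in CD38 KO and 2.12 to 2.13 FPKM in WT, and both CD38 KO libraries lay above both WT libraries for 5 of the 10 and below for 1 (Kdr). Pecam1, an adhesion protein on the endothelial list, was at 1.39 and 1.10 FPKM in CD38 KO and 0.542 and 0.214 FPKM in WT. Cldn5, of endothelial tight junctions, was listed at 0 in both CD38 KO libraries and in WT 1. Eng, the tested one, was not called (limma adjusted p = 0.0664), and was called higher with moderation without trend and with robust moderation. Of 11 pericyte and smooth muscle markers 5 were tested, with 1 higher (Tagln) and 1 lower (Cnn1), and the sum was 86.3 to 99.97 FPKM in CD38 KO and 75.0 to 79.2 FPKM in WT. Both CD38 KO libraries lay above both WT libraries for 6 of the 11 and below for 2. The share of all genes that separate upward was not computed. Of the 11, 6 had a mean under 1 FPKM, as did 9 of the 10 endothelial markers, so nothing is read from these counts. Pdgfrb, the pericyte receptor, was at 10.5 and 9.61 FPKM in CD38 KO and 9.45 and 10.2 FPKM in WT. Anpep was at 0.741 and 0.889 FPKM in CD38 KO and 0.241 and 0.296 FPKM in WT, and Kcnj8 lay under 0.1 FPKM in all 4 libraries. Whether microglia or macrophages contributed to the levels of Pecam1 or Anpep was not tested.

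Fibroblast and meningeal markers differed in both directions. Over all tested genes, 6.35% were called lower and 8.0% higher. Of 9 tested fibroblast and meningeal markers, 5 were called lower and none higher (median log2 difference -0.40). The summed level of the 10 listed was 305 to 331 FPKM in CD38 KO and 621 to 637 FPKM in WT. The 5 became 1 to 3 without 1 library, 2 with the replicate block and 1 with no filter, and the crossed block called 3 higher beside 5 lower. Islr held most of this difference, at 141 and 152 FPKM in CD38 KO and 417 and 406 FPKM in WT. The tested markers that were not called, Col1a1, Col1a2, Col3a1 and Dcn, had positive log2 differences of 0.64, 0.56, 0.39 and 0.10. Col1a1 was at 26.4 and 17.1 FPKM in CD38 KO and 12.0 and 14.8 FPKM in WT, while Col1a2, Col3a1 and Dcn overlapped between genotypes. Of 10 astrocyte markers 6 were called lower and 2 higher, with a median of -0.27 and a summed level of 3053 to 3081 FPKM in CD38 KO and 3449 to 3515 FPKM in WT. Without 1 library these counts were 1 to 3 lower and 0 to 1 higher. The oligodendrocyte lineage list had 2 of 6 tested genes lower (Pdgfra and Olig2), with 0 without CD38 KO 1, CD38 KO 2 or WT 2 and with the replicate block, and the neuron list 1 of 3 higher (Stmn2). With no filter, 0 genes of the oligodendrocyte list were called lower. Pdgfra is counted in the oligodendrocyte, fibroblast and caveola signalling lists alike, so their counts are not separate. The part of any of these lists in the levels and differences of the family was not tested.

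**Figure D4:**
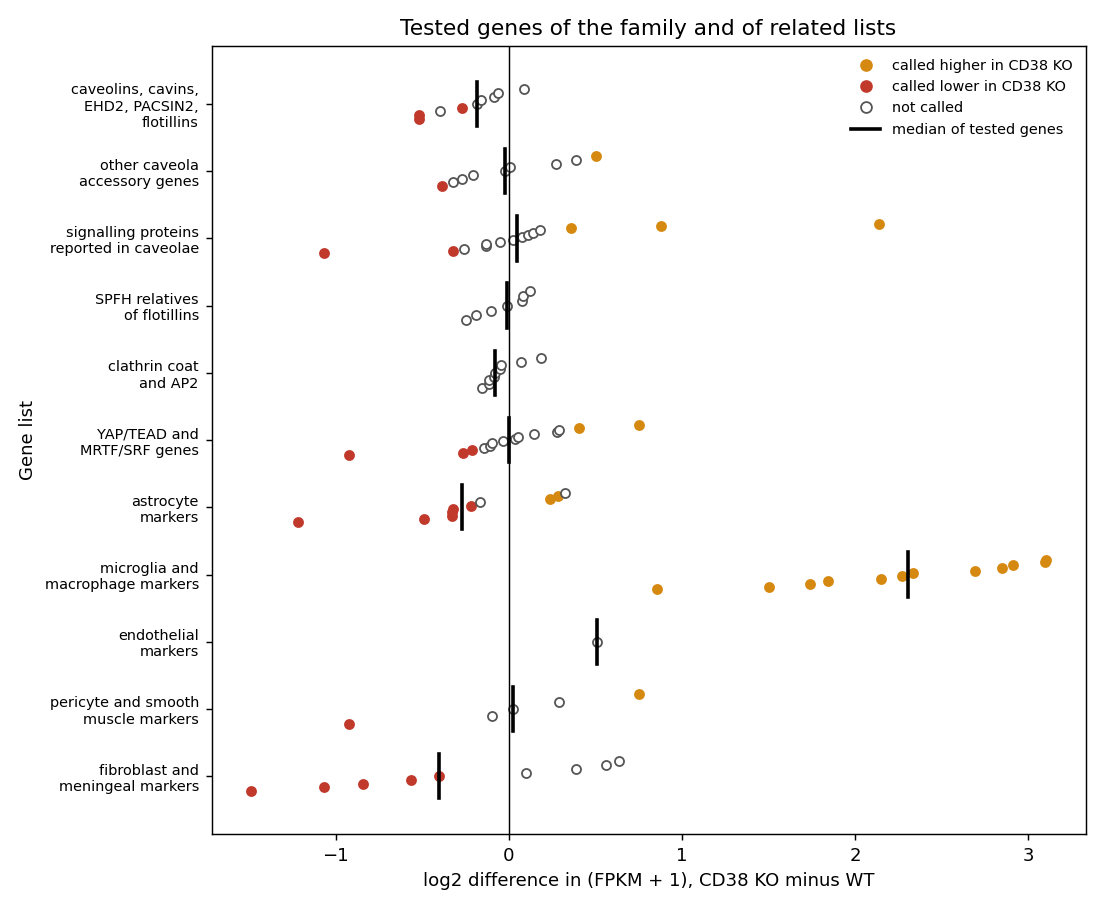
Log2 difference in (FPKM + 1), CD38 KO minus WT, for each tested gene of the family and of 10 related lists, with called genes filled and the median of each list as a black bar. The family has its median at -0.19, the clathrin list at -0.08, the astrocyte markers at -0.27 and the microglia and macrophage markers at 2.31.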

How the data were processed

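RNA was measured by stranded polyA sequencing, per the labels' protocols. The tools named in the submitters' processing notes are Cufflinks 2.2.1, STAR 2.7.0f and bcl2fastq 2.17, with GRCm38 as the build. The deposited values are FPKM per gene, per the file headers. No source used here gives the annotation release or says whether libraries were scaled to each other. Positions were taken from GENCODE M21 (GRCm38), where 55226 of 55467 IDs were found. Depth was read from FPKM steps in 10702 genes with 1 transcript over 1000 bases, where 91.5% to 92.5% of values under 10 fragments fell within 0.1 of a whole number. Fragment numbers carry counting error alone.

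The 13064 genes whose mean reached 1 FPKM were tested with limma (version 3.58.1, R 4.3.3) after log2(FPKM + 1), genotype as the only term, trended moderation and Benjamini-Hochberg adjustment at 0.05. The added 1 understates the change of low genes. Such values are not counts, so no count test was run. Other steps used matplotlib 3.10.9, scipy 1.17.1, pandas 2.3.3 and numpy 2.4.6 under Python 3.11.15.

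The members, the 5 context lists and the 8 marker lists were chosen with earlier results of these data known. All members, up to 4 genes of smallest p per context list, and the 3 tested genes on each side of Cav1/Cav2 and Flot1 were named by rule. Other named genes, among them Src, Fyn and the marker genes, were chosen after their values were seen. Alternatives were 0.1 or 0.5 added before the log, no filter or 5 FPKM, quantile or median-of-ratios scaling, moderation without trend or robust, a replicate block, a crossed block chosen after seeing the data, and each library left out.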

Additional observations from a re-analysis of the deposited data

How the results depend on the processing

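Over all genes 1875 were called, and 3 of the 9 tested members. Without a filter on low values 742 genes and 0 members were called, with 26654 genes tested in place of 13064. Without 1 library 547 to 742 genes and 0 to 2 members were called, from fewer samples. The 0 arose in limma without CD38 KO 2, where 4 members had an unadjusted p under 0.05. With replicate number as a block 1037 genes and 2 members (Cav2 and Ehd2) were called. The labels tie the numbers to no shared culture or day, and the deviations of same-numbered libraries had a weak negative correlation over genes (-0.16). With the numbers crossed, 1961 genes and 4 members were called. The other settings of all 4 libraries called 1437 to 2057 genes and 2 to 4 members, and wherever 4 were called they were Cav1, Cav2, Cavin3 and Ehd2. Without 1 library the log2 difference ran from -0.060 to 0.23 for Cavin2, which turned negative without CD38 KO 1 and without WT 1 (-0.024), and from -0.14 to 0.020 for Flot1, which turned positive without WT 1. Neither was called under any setting. Depth limits Cav3, at 0 or 1 fragments per library.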
